A study of Mus musculus with 2 samples.

Results

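The miR-200 family and miR-205 are microRNAs (miRNAs, short RNAs that repress messenger RNAs) known as markers of epithelial cells. They were examined in membrane vesicles shed by 3T3-L1 cells, a mouse preadipocyte line of fibroblast type that becomes fat-storing adipocytes after hormonal induction. The members were chosen by name, as the array entries mmu-miR-205, mmu-miR-200a, mmu-miR-200b, mmu-miR-200c, mmu-miR-141 and mmu-miR-429, which are 6 of the 567 mouse miRNAs on the array. Each was measured by 2 probes with 10 spots each, giving 120 member spots per array. Vesicle RNA was profiled on 1-colour Agilent miRNA arrays in 2 collection windows, day 8-10 and day 2-4 of 3T3-L1 adipocytes, with 1 array per window. In both windows the vesicles came by ultracentrifugation from medium conditioned for 48 h. Both groups shared the same cell line without a genetic change named in the labels, high-glucose medium with 10% fetal calf serum, and an induction cocktail of 3-isobutyl-1-methylxanthine at 0.5 mM, dexamethasone at 0.25 µM and insulin at 10 µg/ml. The sources used here do not say whether the serum was cleared of its own vesicles, so serum RNA and cell RNA cannot be told apart. A single array per window allows no statistical test, and the errors below are technical, covering only the spread among spots of the same array. Preparation, hybridisation and collection window cannot be told apart either.

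As background, the miR-200 miRNAs keep epithelial cells epithelial. They repress Zeb1 and Zeb2, transcription factors that switch off the cadherin gene Cdh1 during the transition from epithelial to mesenchymal cells, and those factors in turn repress the miR-200 genes. miR-205 acts on the same Zeb messenger RNAs, is abundant in stratified epithelia such as skin, and is low or absent in most fibroblasts. Mesenchymal cells, the lineage of preadipocytes, usually hold little of either.

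The mature sequences show how the members divide. miR-205, the only member detected, stands apart from the others in sequence, but a relation of sequence to detection was not tested. The sequences are given 5′ to 3′ from RefSeq (build GRCm38.p6), with the seed, bases 2 to 8, in capitals. The seed is the stretch that pairs with target messenger RNAs. All 6 members were matched, the miR-200 entries to names such as mmu-miR-200a-3p and miR-205 to mmu-miR-205-5p.
miR-205: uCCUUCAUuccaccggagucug
miR-200b: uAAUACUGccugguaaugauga
miR-200c: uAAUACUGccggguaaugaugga
miR-429: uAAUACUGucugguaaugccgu
miR-200a: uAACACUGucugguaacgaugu
miR-141: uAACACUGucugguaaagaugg

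miR-200b, miR-200c and miR-429 share AAUACUG, miR-200a and miR-141 share AACACUG, and miR-205 has CCUUCAU. No other entry among the 1679 mature mouse miRNA names of the RefSeq table carries any of these seeds. The seeds of the miR-200 miRNAs differ from each other at 1 of 7 bases, and that of miR-205 differs from them at 5 or 6 of 7. Over the first 22 bases, any pair of miR-200 miRNAs was identical at 17 to 20 positions, against 5 to 7 positions between miR-205 and each of them. The GC content of miR-205 was 54.5%, above the 36.4% to 43.5% of the miR-200 miRNAs.

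The genes lie at 3 loci, all on the minus strand of GRCm38.p6. miR-205 is on chromosome 1 (193507503 to 193507524), inside the long noncoding RNA gene Mir205hg between the coding genes Camk1g and Plxna2. miR-429 (156053916 to 156053937), miR-200a (156054911 to 156054932) and miR-200b (156055685 to 156055706) lie together on chromosome 4 inside the gene Gm13648. miR-141 (124717917 to 124717938) and miR-200c (124718324 to 124718346) lie on chromosome 6 between the coding genes Phb2 and Ptpn6, and no gene of the table contains them. The array files also give positions, in a build that the sources used here do not name. The spacing of the entries was the same in both, with 995 bases from miR-429 to miR-200a, 774 from miR-200a to miR-200b and 407 from miR-141 to miR-200c.

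Each probe was taken to read only the 3′ part of its miRNA. In 339 of 339 miRNAs that could be compared, the order of a probe's positions matched the gene strand, with the 3′ end of the stretch listed first. Both probes of a member share that first position and differ by 1 base in length. That the stretch begins at the 3′ end of the miRNA was assumed, and for miR-205 no position was compared. The miR-205 probes cover 15 and 16 bases, so that on this assumption the longer one spans bases 7 to 22. These are shown in capitals because both readings of the detected member come from this stretch.
miR-205 under its longer probe: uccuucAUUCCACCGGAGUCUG
The probes of the miR-200 miRNAs cover from 15 and 16 bases (miR-200c) to 18 and 19 bases (miR-429). On the same assumption, the longer probes hold between 1 (miR-200c) and 5 (miR-429) of the 7 seed bases.

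miR-205 was the only member detected, and only in the late vesicles. A probe counted as detected where the scanner software had flagged more than 0.5 of its spots as well above background, outlier spots aside. A miRNA needed 1 such probe. By this rule 1 of 6 members was detected at day 8-10 and 0 of 6 at day 2-4. Over the whole array 29.3% of the mouse miRNAs (166 of 567) were detected at day 8-10 and 27.5% (156 of 567) at day 2-4. Detection at day 8-10 alone was found for 21 of 567 miRNAs (3.7%), and 11 of 567 (1.94%) were in addition at least 2-fold higher by the bound described below. The 5 miR-200 miRNAs were among the 390 miRNAs detected on neither array.

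The spots of miR-205 at day 8-10 stood clear of the background. Intensities are the processed values of the files, in linear units after subtraction of a fitted background and before any scaling between arrays. The 16-base probe ranged from 20.9 to 25.1 with a median of 22.9 over 10 spots at day 8-10, against 2.35 to 4.30 with a median of 3.16 over 9 spots at day 2-4. Its mean was 23.1 ± 1.54 at day 8-10 and 3.21 ± 0.742 at day 2-4 (SD over spots), and the spots of the arrays did not overlap. The 15-base probe ranged from 8.21 to 14.0 with a median of 10.7 at day 8-10, against -0.314 to 4.14 with a median of 1.92 at day 2-4 (10 spots each). Its mean was 11.2 ± 1.96 at day 8-10 and 1.80 ± 1.21 at day 2-4 (SD over spots), again without overlap between the arrays. The raw means before background subtraction were 68.8 over a local background of 42.4 at day 8-10 for the longer probe, and 48.6 over 42.5 at day 2-4, a small step above its surroundings. Undetected miR-200 probes also lay above theirs at day 2-4. Examples are 45.2 over 42.25 for the 16-base miR-200b probe and 45.0 over 43.65 for the 19-base miR-429 probe. All 20 spots were well above background at day 8-10, and 0 of 19 were at day 2-4. The spot left out at day 2-4, flagged as an outlier by the software, read 7.35.

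**Figure D1:**
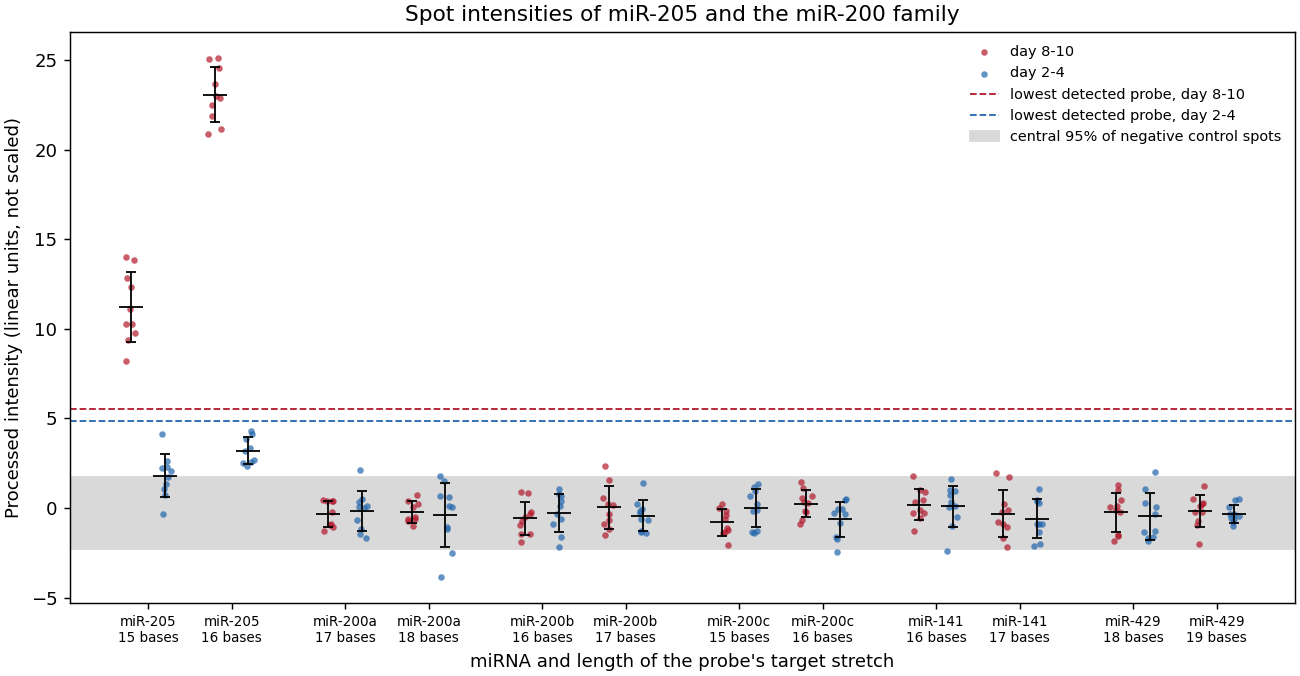
Processed intensity (linear units) of every spot of the 12 member probes, red for day 8-10 and blue for day 2-4, with the mean and SD over spots in black and outlier spots left out. Only the miR-205 spots of day 8-10, between 8.21 and 25.1, lie above the dashed lines of the lowest detected probe on each array (5.55 at day 8-10 and 4.86 at day 2-4), and most miR-200 spots lie in the grey band that holds the central 95% of negative control spots.

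At day 2-4 miR-205 was below the detection rule but not at the level of the negative controls. Of its 19 spots, 15 (78.9%) lay above 1.61, the level that 2.5% of the negative control spots exceeded there, and 6 lay above the highest of those control spots, 2.70. At day 8-10 all 20 spots lay above the highest negative control spot, 2.83. These control ranges leave out the 16 (day 8-10) and 12 (day 2-4) control spots with an outlier flag, the highest of which read 11.2 at day 8-10 and 9.87 at day 2-4. A looser flag of the software, positive and significant against background, was carried by 20 of 20 miR-205 spots at day 8-10 and 17 of 19 at day 2-4. Among negative control spots the same flag was set for 9.30% at day 8-10 and 9.09% at day 2-4. By that flag miR-205 counted as detected on both arrays. The flag is lenient, since by it 267 of the 567 mouse miRNAs counted as detected at day 8-10 and 254 of 567 at day 2-4.

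The size of the miR-205 difference is therefore a bound. Each array was divided by its 75th percentile (95.2 at day 8-10 and 108 at day 2-4), taken over the 279 probes that both arrays detected, and multiplied by the geometric mean of both percentiles, and values were set to no lower than the lowest detected probe of each array. On this scale miR-205 was at least 3.77-fold higher at day 8-10, a log2 difference of 1.91 with a spot SE of 0.080. Its log2 signals were 4.10 at day 8-10 and 2.19, the floor, at day 2-4. The day 2-4 part of that SE is the spread of the unfloored miR-205 spots relative to the floor. The SE is therefore not the error of the bound, and it leaves out the error of the floor itself. By probe, the scaled bound was 5.40-fold for the 16-base probe and 2.63-fold for the 15-base probe. Taken at its own dim day 2-4 values without the floor, the scaled ratio was 8.18-fold for the longer probe and 7.10-fold for the shorter one, and the log2 difference over both was 2.93. The scanner software's own gene signal was 22.9 ± 2.00 at day 8-10 and 3.31 ± 1.01 at day 2-4 (software error), and the software called the miRNA detected at day 8-10 only. The direction was the same under each of the 11 other settings, which is weak evidence. Where the floor was kept, the direction was nearly fixed by detection at day 8-10 only. The value table and the use of all probes could not differ from the main setting, since they used the same miR-205 values. Keeping outlier spots also gave 1.91, the only miR-205 outlier being on the floored day 2-4 array. With normexp, a model-based background correction, and an offset of 50 added to both arrays, the log2 difference was 0.45, below 2-fold. The same correction without the offset, a setting chosen after the data were seen, gave 1.68. Both normexp values were taken without the floor, so they compare with the 2.93 and not with the floored 1.91.

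**Figure D2:**
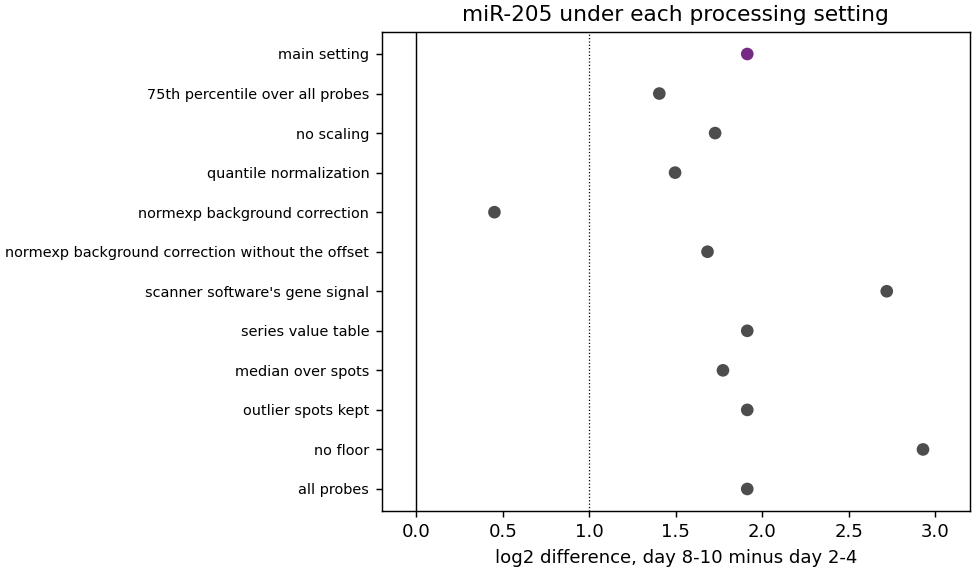
Log2 difference of miR-205, day 8-10 minus day 2-4, in the main setting (purple) and under each of the 11 other settings (grey), with a dotted line at 2-fold. Values run from 0.45 with normexp and its offset to 2.93 without the floor, and only the value with the offset lies left of the dotted line. Both normexp settings were also without the floor.

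Other signals moved between the arrays as well. The bright corner control spots, named miRNABrightCorner30, averaged 72.2 ± 11.9 at day 8-10 and 18.5 ± 4.94 at day 2-4 (SD over 10 spots each), 3.89-fold brighter. The control sets hur_1, hur_2, hur_4 and hur_6 were 4.25- to 9.89-fold brighter at day 8-10 before scaling, while the set mr_1 was at 0.776 of its day 2-4 value. The negative controls had means of -0.326 at day 8-10 and -0.288 at day 2-4. The part of these control signals in the miR-205 difference was not tested.

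The longer of the miR-205 probes gave the brighter signal on both arrays, by 2.06 times at day 8-10 and 1.79 times at day 2-4. This order was the usual one. Among miRNAs with a pair of detected probes that differ by 1 base, the longer probe was the brighter in 83 of 87 at day 8-10, with a median ratio of 2.31, and in 81 of 83 at day 2-4, with a median ratio of 2.44. The day 8-10 ratio of miR-205 lay inside the middle range of these pairs (quartiles 1.61 and 3.60), and so did the day 2-4 ratio (quartiles 1.72 and 4.01), although neither miR-205 probe was detected at day 2-4.

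The miR-200 family gave no signal apart from the negative controls in either window. Its 98 spots at day 8-10 averaged -0.216 ± 0.955 and its 100 spots at day 2-4 averaged -0.318 ± 1.11 (SD over spots), against -0.326 ± 1.02 over 656 negative control spots at day 8-10 and -0.288 ± 0.983 over 660 at day 2-4. None of these spots was well above background. The highest family spot read 2.36 at day 8-10, a spot of miR-200b, and 2.10 at day 2-4, a spot of miR-200a, while the lowest spot of the array that was well above background read 5.39 at day 8-10 and 5.21 at day 2-4. Above the level that 2.5% of the control spots exceeded, 1.74 at day 8-10 and 1.61 at day 2-4, lay 3 of 98 family spots (3.06%) at day 8-10 and 3 of 100 (3.00%) at day 2-4. The positive and significant flag was set for 9.18% of family spots at day 8-10 and 11.0% at day 2-4, beside 9.30% of control spots at day 8-10 and 9.09% at day 2-4. Their levels were thus not detectable at this signal, which does not show that the miRNAs were absent.

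**Figure D3:**
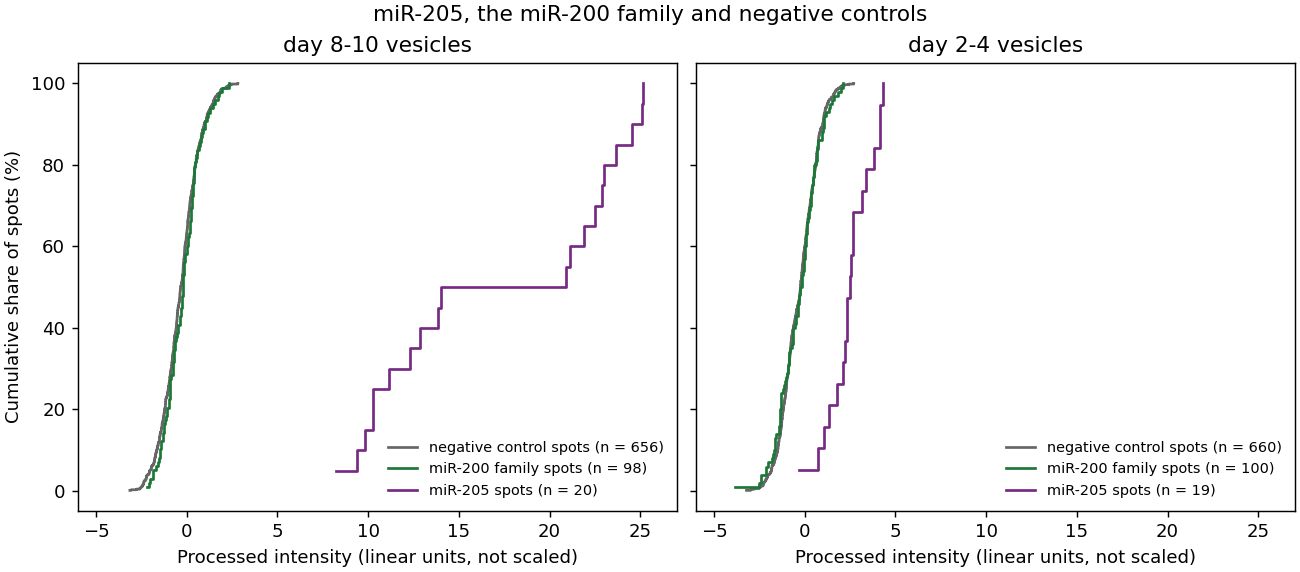
Cumulative share of spots (percent) against processed intensity (linear units) at day 8-10 (left) and day 2-4 (right), for negative controls (grey), the miR-200 family (green) and miR-205 (purple), without outlier spots. The family curve lies on that of the controls in both windows, while 20 of 20 miR-205 spots at day 8-10 and 6 of 19 at day 2-4 lie to the right of every control spot drawn.

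Within the family the members were alike in having no detectable level. Both members of the AACACUG seed and the 3 of the AAUACUG seed had probe means from -0.808 to 0.249 at day 8-10 and from -0.637 to 0.0890 at day 2-4. Over its 20 spots miR-200b averaged -0.271 at day 8-10 and -0.346 at day 2-4. miR-200c averaged -0.280 at day 8-10 and -0.320 at day 2-4. miR-429, the remaining member with that seed, averaged -0.206 at day 8-10 and -0.393 at day 2-4. Each of these averages lay within 1 SD of the negative controls.

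The AACACUG members gave the same picture. miR-200a averaged -0.271 over 18 spots at day 8-10 and -0.278 over 20 at day 2-4, and miR-141 averaged -0.0585 at day 8-10 and -0.252 at day 2-4. Of the 10 family probes, 7 had a higher mean at day 8-10 and 3 a higher mean at day 2-4. The largest difference was that of the 16-base probe of miR-200c, 0.249 at day 8-10 and -0.637 at day 2-4, which was 2.25 times its spot SE. The other miR-200c probe ran the opposite way, with -0.808 at day 8-10 and -0.00256 at day 2-4, so the miRNA as a whole showed no shared direction. The software's gene signals of the family ran from -0.373 to -0.0780 at day 8-10 and from -0.520 to -0.334 at day 2-4, with errors of 1.02 at day 8-10 and 0.975 to 0.977 at day 2-4. It called 0 of 5 detected in either window, beside 194 of 567 mouse miRNAs at day 8-10 and 184 of 567 at day 2-4. No fold is given for these members, since both arrays were below background.

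The opposite strands of the same hairpins were not detected either. The array has no entry named miR-429* or miR-205*. It carries miR-200a*, miR-200b*, miR-200c* and miR-141*, the less abundant strands, with 15 probes. Their probe means ran from -0.775 to 1.36 at day 8-10 and from -0.878 to 0.559 at day 2-4. No spot of theirs was well above background, the highest reading 2.66 at day 8-10 and 2.84 at day 2-4.

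Of 8 further miRNAs listed for epithelial tissues, 5 were detected at day 8-10 and 3 at day 2-4, beside shares of 29.3% at day 8-10 and 27.5% at day 2-4 over all mouse miRNAs of the array. Their summed scaled signal over the detected entries was 197 at day 8-10 and 24.4 at day 2-4, a sum over different probes and so not an amount. Undetected entries were left out, so the sum covers 5 miRNAs at day 8-10 and 3 at day 2-4. miR-96 (log2 6.52 at day 8-10) and miR-183 (6.07) made up most of the day 8-10 sum. miR-96, miR-182 and miR-183 share a cluster known from sensory epithelia. The brighter of the probes of miR-96 had an unscaled mean of 108 at day 8-10 and 12.9 at day 2-4, that of miR-183 had 110 at day 8-10 and 20.9 at day 2-4, and that of miR-182 had 64.6 at day 8-10 and 4.67 at day 2-4. For miR-192 and miR-194, miRNAs of intestine, kidney and liver, the brighter probe read less. It was at 10.4 at day 8-10 and 5.31 at day 2-4 for miR-192, and at 5.96 at day 8-10 and 2.94 at day 2-4 for miR-194. Undetected on both arrays were miR-203, which marks the differentiating epidermis, miR-375 of endocrine and gut epithelium, and miR-215, a relative of miR-192. The probe means of miR-203 were -0.165 and -0.0270 at day 8-10 and -0.0485 and 0.0244 at day 2-4. The part of RNA from epithelial cells or serum in the miR-205 signal was not tested.

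Lists for adipocytes, mesenchymal cells and blood were chosen with earlier results of these data known, so their counts are no test of the cell type. The adipocyte list held miR-103, miR-107, miR-378, miR-148a, miR-30a, miR-30c, miR-30e, miR-210, miR-193, miR-193b, miR-365 and miR-26b. All 12 miRNAs listed for adipocytes were detected on both arrays, 9 of them at least 2-fold higher at day 8-10 and 0 at least 2-fold lower. Over the whole array, 145 miRNAs passed detection in both windows, and a day 8-10 signal of 2-fold or more above day 2-4 was seen for 24 of them (16.6%), and of 2-fold or more below it for 12 (8.28%). Of 12 fibroblast and mesenchymal miRNAs 11 were detected in each window, miR-145 being the exception, with 0 at least 2-fold higher at day 8-10 and 2 at least 2-fold lower. The share of all mouse miRNAs of the array that was detected was 29.3% at day 8-10 and 27.5% at day 2-4. Of 7 blood-cell and serum miRNAs 5 were detected at day 8-10 and 4 at day 2-4. Their summed scaled signals over the detected entries were 797 at day 8-10 and 760 at day 2-4. The brightest was miR-451, at log2 9.40 at day 8-10 and 9.36 at day 2-4, and it made up most of both sums. Also detected on both arrays were miR-16 (6.54 at day 8-10 and 6.34 at day 2-4), miR-486 (3.52 and 3.47) and miR-223 (3.44 and 3.67). miR-144 (2.83) was detected at day 8-10 only. miR-122 of liver and miR-150 of lymphocytes, both carried in serum, were undetected on both arrays.

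Among all detected miRNAs miR-205 was of middling brightness and stood near the lower edge of the day 2-4 array. By scaled signal it ranked 92nd of the 166 miRNAs detected at day 8-10, a rank over different probes that is not an order of amounts. By the size of the bound it ranked 5th of the 21 miRNAs detected at day 8-10 only, of which 18 had the same day 2-4 floor, so this order too is mainly one of day 8-10 signals of different probes. The 5 miRNAs nearest to it, by the Euclidean distance between pairs of floored log2 signals over the 2 arrays, were miR-805 (distance 0.13), miR-718 (0.15), miR-182 (0.24), miR-378* (0.25) and miR-327 (0.27). miR-718 was detected on both arrays, with log2 signals of 4.07 at day 8-10 and 2.33 at day 2-4. The others were at the floor of 2.19 at day 2-4, with day 8-10 signals of 4.23 (miR-805, from 1 probe), 4.34 (miR-182), 3.85 (miR-378*) and 3.83 (miR-327). Since these 4 share the floor on the day 2-4 array, the likeness rests largely on the day 8-10 array.

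**Figure D4:**
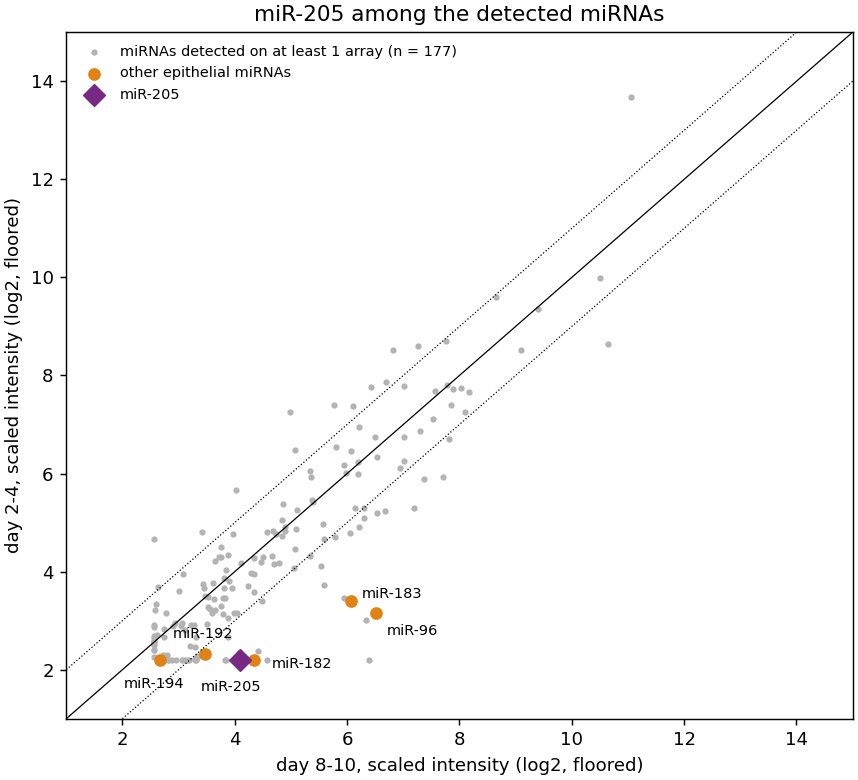
Scaled and floored log2 intensity of the 177 miRNAs detected on at least 1 array, day 8-10 across and day 2-4 up, with a line of equality and dotted lines at 2-fold. miR-205 (purple diamond) lies at 4.10 and 2.19, on the day 2-4 floor beside miR-182, while miR-200 miRNAs have no point because neither array detected them.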

How the data were processed

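Per the file headers, Agilent Feature Extraction 9.5.3.1 gave a linear intensity for each spot. From this the software subtracted a background surface fitted across the array to give the deposited processed intensity, with no normalization between arrays. The deposited p-value of each spot against its background was not used directly, only the deposited flags derived by the software. Per the labels' protocols, 100 ng of Trizol-extracted total RNA was dephosphorylated and labelled. The series value table equalled the processed intensity at 24986 of 24986 spots, so it was linear and uncentred (medians 0.646 at day 8-10 and 0.516 at day 2-4).

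Of the 11340 miRNA spots of an array, those flagged as outliers were left out (249 at day 8-10 and 237 at day 2-4), as were control spots. No spot was saturated. Spots were averaged per probe (1672 probes), scaled, floored and log2 transformed as described. A miRNA's value is the mean over probes detected on at least 1 array. Alternatives were other scalings, background correction (limma 3.58.1, normexp offset 50, and, chosen after seeing the data, no offset, both without the floor), spot summaries and detection rules. The number of arrays limits the precision. The calculation was tested on simulated arrays with a known change placed only in bright miRNAs. That test did not cover a dim, floored miRNA such as miR-205. The members, lists and the rule for named miRNAs (all members, both epithelial lists, and the 5 miRNAs nearest to miR-205) were chosen with earlier results of these data known.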

Additional observations from a re-analysis of the deposited data

How the results depend on the processing

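The detection counts kept their value under nearly every other rule. With at least 1 spot or every spot of a probe required, with outlier spots kept, and with the scanner software's own call, miR-205 was detected at day 8-10 and no member at day 2-4. Of all 567 miRNAs, at least 1 spot gave 192 at day 8-10 and 185 at day 2-4, and every spot gave 153 and 143. Outlier spots kept gave 166 and 156, and the software's call gave 194 and 184. With the positive and significant flag, 1 member (miR-205) was among the 254 of 567 miRNAs detected at day 2-4, and 267 of 567 were detected at day 8-10. The log2 difference of miR-205, 1.91 in the main setting, was 2.93 without the floor, 2.72 with the software's gene signal, 1.73 without scaling, 1.50 with quantile normalization, 1.40 with the 75th percentile of all probes and 0.45 with normexp and an offset of 50. Normexp without the offset, added after seeing the data, gave 1.68. Both normexp values were also taken without the floor, so they compare with the 2.93 and not with the 1.91. Values without the floor are ratios to a signal that the detection rule did not pass. The log2 difference was 1.77 with medians over spots and 1.91 with the value table, with outlier spots kept or with all probes in use. The value table and all-probes settings used the same miR-205 values as the main one and could not differ from it. Values within 2 spot SE of the main one were taken as unmoved. This SE is not the error of the floored bound, and the margin leaves out variation between preparations, so unmoved is only a label. With 1 array per window nothing shows how far another preparation would differ. No paired analysis was possible because each window held 1 array.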

Other observations

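Some undetected entries had every probe mean on the same side. Each of the 4 probes of miR-200b*, the opposite strand of the miR-200b hairpin, had a higher mean at day 8-10, from 0.0820 to 1.36, than any of them at day 2-4, from -0.878 to -0.170. The probe means of miR-429 also did not overlap, at -0.233 and -0.179 at day 8-10 and -0.472 and -0.314 at day 2-4. All probes of miR-200a* and of miR-141 had higher means at day 8-10 as well, with overlap between the arrays. Among the other epithelial miRNAs, miR-215 was higher at day 8-10 without overlap. The opposite direction was seen too. All probes of miR-375 had higher means at day 2-4 without overlap, and all probes of miR-203 had higher means at day 2-4 with overlap. The probes of miR-200a, miR-200b, miR-200c, miR-200c* and miR-141* had no shared direction. Among the 387 undetected miRNAs with several probes, all probe means were higher at day 8-10 in 85 and higher at day 2-4 in 51, and they did not overlap in 45 of the entries higher at day 8-10 and in 24 of those higher at day 2-4. Of the 159 entries with 2 probes, as for miR-429, 33 were higher at day 8-10 without overlap and 20 at day 2-4. Of the 218 with 4 probes, as for miR-200b*, these counts were 12 and 4. No spot of miR-200b* was well above background in either window, and the software's gene signal was 1.06 ± 0.723 at day 8-10 and -0.518 ± 0.690 at day 2-4 (software error). The main strand, miR-200b, averaged -0.271 at day 8-10 and -0.346 at day 2-4. These entries were singled out after their values were seen, and no test was possible.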
